A study of Mus musculus with 7 samples.

Results

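The core circadian clock genes Arntl, Clock, Per1, Per2, Per3, Cry1, Cry2, Nr1d1, Nr1d2 and Nfil3 were followed in mouse livers labelled as knockout for the histone deacetylase HDAC3 or as rescued with it. These 10 genes were picked by name, as array probe sets annotated with exactly 1 gene symbol on that list, and each had 1 such probe set among the 19933 genes measured. Liver RNA of C57BL/6 males aged 4 months was read on 7 arrays of the type Affymetrix Mouse Gene 1.0 ST, 1 liver on each. In the knockout group (n = 3) the mice carried AAV-Cre, an adeno-associated virus that delivers Cre recombinase. In the rescued group (n = 4) they carried AAV-Cre together with a second virus, AAV-Flag-HDAC3, which encodes wild-type HDAC3 with a Flag tag. Mice of both groups ate normal chow freely and were killed 2 weeks after injection at 5 pm, which is ZT10. Both groups thus received Cre, the knockout mice received 1 virus fewer, and no uninjected liver was analysed here. The titles call the rescued livers wild type. The labels do not state which Hdac3 allele Cre recombines, nor which promoters the viruses carry. All livers came from 1 time of day, so the values give levels at ZT10 and neither a rhythm nor a phase.

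The liver clock is a loop of transcription factors. BMAL1 (encoded by Arntl) and CLOCK form a dimer that binds E-box elements and activates the Per and Cry genes, and PER and CRY proteins return to inhibit that dimer. In a second loop the same dimer activates Nr1d1 and Nr1d2, which encode the nuclear receptors REV-ERB alpha and REV-ERB beta. REV-ERB proteins bind RORE elements and repress Arntl, Clock and Nfil3, and REV-ERB alpha does so by recruiting the NCoR corepressor with HDAC3. ROR receptors activate through the same elements. NFIL3 represses through D-box elements, at which DBP, TEF and HLF activate. In mouse liver, REV-ERB alpha is known to be abundant in the late afternoon, when Arntl transcripts are low.

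Promoter windows from RefSeq (build GRCm38.p6, 250 bases before to 50 bases after a transcript start) were given for 9 members, in 13 windows. Per2 was the member without one. Both strands were searched for the E-box CACGTG and its variant CACGTT, the D-box TTANGTAA, the RORE core as TAGGTCA or TGGGTCA, and the CRE TGACGTCA. The letters were chosen after the windows had been read. None of these motifs contains another. TAGGTCA occurred in windows of Arntl and Nfil3, the pair of members with the RORE core, and in 2.61% of all 32851 windows. The D-box occurred at 2 positions of the Per3 window and in 2.32% of all windows. CACGTG occurred in windows of Per1 and Cry1 and in 7.15% of all windows. CACGTT occurred in those of Cry1, Cry2 and Nr1d1 and in 4.68% of all windows. No member window held TGGGTCA (3.98% of all windows) or TGACGTCA (1.79%), which says only that these letters are not in the windows searched. A further form, TAGGTTA, was noticed beside the RORE core of Arntl and occurs in 1.44% of all windows. These matches are descriptions of sequence and not of binding.

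4 windows are printed 5′ to 3′ on the strand of the gene because their members stand for the RORE, D-box and E-box branches of the loop. Capitals mark the searched motifs on either strand. The Arntl window is chr7:113207261-113207560 (plus strand), with TAGGTTA at the start site and TAGGTCA from 31 to 37 bases after it. The Nfil3 window is chr13:52980990-52981289 (minus strand), with TAGGTCA on the opposite strand from 12 to 6 bases before the start. The Per3 window is chr4:151044616-151044915 (minus strand), with D-boxes from 205 to 198 and from 158 to 151 bases before the start. The Cry1 window is chr10:85185005-85185304 (minus strand), with CACGTG from 60 to 55 bases before the start and CACGTT on the opposite strand from 79 to 74 bases before it.
Arntl: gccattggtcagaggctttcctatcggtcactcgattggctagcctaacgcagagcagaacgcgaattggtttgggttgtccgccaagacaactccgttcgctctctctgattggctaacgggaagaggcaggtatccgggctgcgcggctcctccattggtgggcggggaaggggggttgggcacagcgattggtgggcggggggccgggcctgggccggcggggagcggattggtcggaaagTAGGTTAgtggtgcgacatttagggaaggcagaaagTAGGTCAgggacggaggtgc
Nfil3: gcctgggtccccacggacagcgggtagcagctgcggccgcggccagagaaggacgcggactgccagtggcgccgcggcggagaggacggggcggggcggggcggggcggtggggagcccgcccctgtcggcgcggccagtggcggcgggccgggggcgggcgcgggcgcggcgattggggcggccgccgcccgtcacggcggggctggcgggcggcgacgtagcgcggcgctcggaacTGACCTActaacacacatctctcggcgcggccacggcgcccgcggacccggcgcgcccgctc
Per3: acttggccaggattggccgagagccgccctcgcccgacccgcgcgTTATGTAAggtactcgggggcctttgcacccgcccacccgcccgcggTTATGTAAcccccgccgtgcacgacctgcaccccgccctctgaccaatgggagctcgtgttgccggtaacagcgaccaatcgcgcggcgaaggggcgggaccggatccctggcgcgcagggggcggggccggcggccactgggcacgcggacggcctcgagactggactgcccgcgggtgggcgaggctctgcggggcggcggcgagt
Cry1: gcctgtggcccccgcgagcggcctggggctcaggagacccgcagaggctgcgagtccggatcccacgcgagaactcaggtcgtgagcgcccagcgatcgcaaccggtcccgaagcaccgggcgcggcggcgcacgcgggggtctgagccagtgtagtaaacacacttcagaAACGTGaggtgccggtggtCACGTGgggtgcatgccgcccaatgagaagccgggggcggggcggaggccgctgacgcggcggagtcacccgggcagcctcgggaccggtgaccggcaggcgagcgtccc

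Of the 10 clock genes, 4 were higher in the knockout livers (Nfil3, Nr1d1, Arntl and Clock), 1 was lower (Cry2), and 5 did not pass the test. The test was limma's moderated test of log2 intensity, knockout minus rescued, and p-values were adjusted by Benjamini and Hochberg's method across the 19933 genes, with a call at adjusted p under 0.05. The background rate of calls was 14.4%, made up of 9.54% higher and 4.85% lower. The groups did not overlap for 8 of the 10 members, 4 with higher and 4 with lower knockout arrays, against 29.6% of all genes, 21% higher and 8.56% lower. An unadjusted p under 0.05 was reached by 9 of the 10 members and by 7115 of all genes. The differences ran from -0.34 (Cry2) to 0.97 (Nfil3), with a median of -0.08, while the median over all genes was 0.09. After quantile normalization, median centring or cyclic loess the same 4 members were called higher and Cry2 lower. Calls that held as deposited and in these 3 scalings covered 2.61% of genes upward and 4.06% downward. Higher genes made up 66.3% of all calls as deposited, 45.9% with quantile normalization, 27.2% with median centring and 45% with cyclic loess. After median centring Per2 (-0.37, adjusted p = 0.0226), Per3 (-0.39, adjusted p = 0.0322) and Cry1 (-0.26, adjusted p = 0.0368) were also called lower in limma's test.

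**Figure D1:**
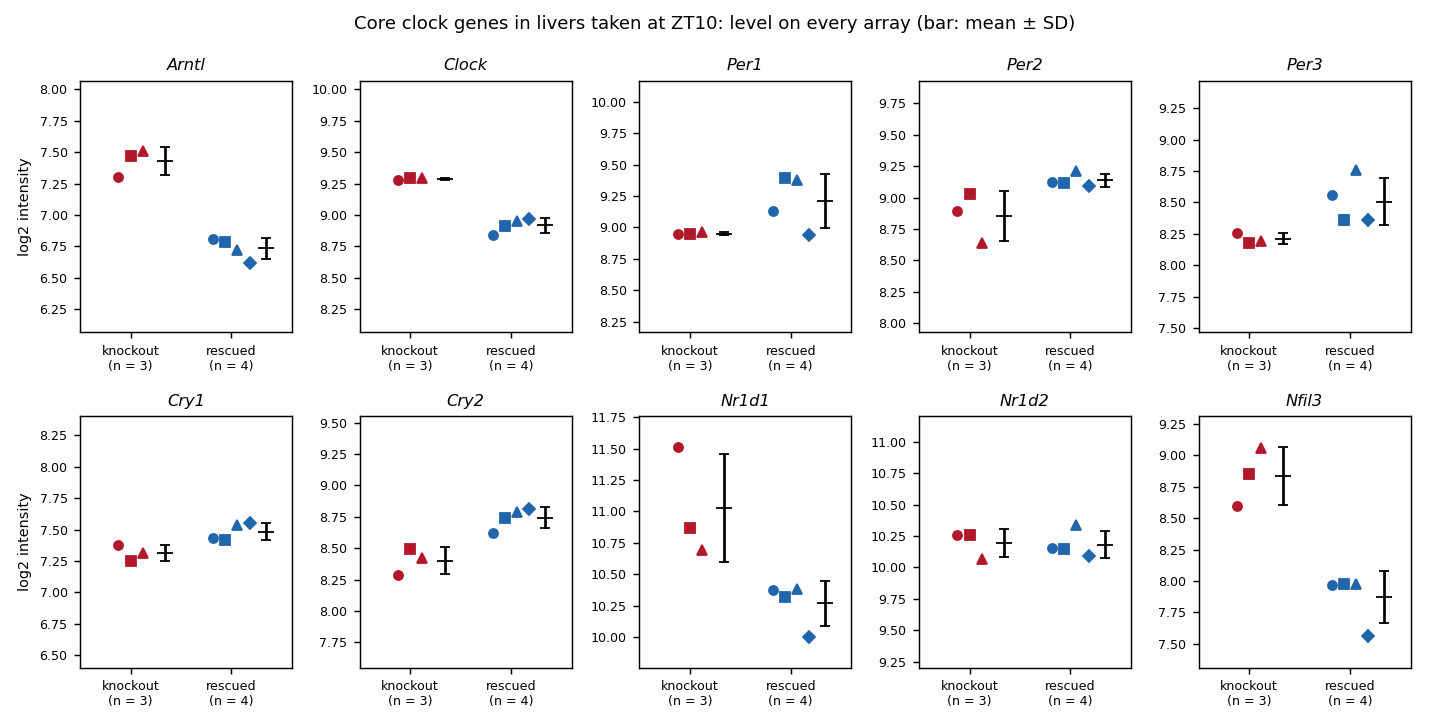
Log2 intensity of the 10 clock genes on each array, with knockout livers in red (n = 3) and rescued livers in blue (n = 4); the symbol shape is the replicate number of the label, the black bar is mean ± SD, and every panel spans 2 log2 units. Knockout arrays lie above all rescued arrays for Arntl, Clock, Nr1d1 and Nfil3, below them for Per2, Per3, Cry1 and Cry2, and overlap them for Per1 and Nr1d2.

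The positive arm of the loop was higher in the knockout livers. Arntl, which encodes BMAL1, was at log2 levels of 7.30, 7.47 and 7.51 on the knockout arrays and 6.81, 6.79, 6.73 and 6.62 on the rescued arrays. The lowest knockout liver thus stood well above the highest rescued liver. The means were 7.43 ± 0.11 (SD, n = 3) and 6.74 ± 0.08 (SD, n = 4), a difference of 0.69 (SE 0.08) or 1.62-fold, with adjusted p = 0.000736 in limma's test. Clock, the partner of BMAL1, read 9.28, 9.29 and 9.29 in knockout livers against 8.84, 8.91, 8.95 and 8.97 in rescued livers. The knockout arrays were nearly equal to each other (SD 0.01) and all above the rescued ones. Knockout replicates 2 and 3 hold the identical value 9.29336, so that SD may understate the spread between livers. The difference was 0.37 (SE 0.06), 1.29-fold, with adjusted p = 0.00713. Leaving out each array in turn gave 0.65 to 0.75 for Arntl and 0.34 to 0.39 for Clock, and both stayed called in all 7 runs.

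Nfil3, the D-box repressor, had the largest rise of the 10. Its log2 levels were 8.59, 8.85 and 9.06 in the knockout livers and 7.97, 7.97, 7.98 and 7.56 in the rescued livers. The rescued livers were tightly grouped apart from replicate 4, which was lower, and the knockout livers were more widely spread. The difference was 0.97 (SE 0.13), or 1.95-fold (95% confidence interval 1.61 to 2.37), with adjusted p = 0.00165. Dropping single arrays moved it between 0.85 and 1.09.

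Of the REV-ERB genes, Nr1d1 rose and Nr1d2 did not pass the test. Nr1d1, which encodes REV-ERB alpha, read 11.51, 10.87 and 10.69 in knockout livers and 10.37, 10.32, 10.38 and 10.0015 in rescued livers. Knockout replicate 1 stood above the others, and the groups did not overlap. The difference was 0.76 (SE 0.17), 1.69-fold (interval 1.31 to 2.18), with adjusted p = 0.0187. Without knockout replicate 1 it was 0.51, still called at adjusted p = 0.0471. Nr1d2, which encodes REV-ERB beta, read 10.26, 10.26 and 10.07 in knockout livers against 10.15, 10.15, 10.34 and 10.09 in rescued livers. The groups were interleaved, and the difference of 0.01 had a 95% confidence interval of -0.17 to 0.19 (adjusted p = 0.916), so shifts beyond about 1.14-fold upward lay outside it. Its sign turned under quantile normalization (-0.02) and median centring (-0.08), but not under cyclic loess (0.01). The sign also turned with some single arrays left out (-0.02 to 0.08).

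Among the negative arm, Cry2 was the only member called lower as deposited, while Cry1, Per1, Per2 and Per3 also had negative differences. This cryptochrome, a repressor of the BMAL1 and CLOCK dimer, read 8.28, 8.49 and 8.42 in knockout livers and 8.62, 8.74, 8.79 and 8.81 in rescued livers. All knockout values were below all rescued values, and the difference was -0.34 (SE 0.08), 1.27-fold lower, with adjusted p = 0.0200. The difference stayed between -0.39 and -0.28 with an array left out, but the call was lost without knockout replicate 1 (adjusted p = 0.0728), rescued replicate 2 (0.0516), rescued replicate 3 (0.0607) or rescued replicate 4 (0.0540). Cry1, the other cryptochrome, read 7.38, 7.25 and 7.31 in knockout livers and 7.44, 7.41, 7.53 and 7.55 in rescued livers. The groups did not overlap but were close, with a difference of -0.17 (interval -0.32 to -0.02) and adjusted p = 0.111.

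None of the 3 Period genes passed the test as deposited, although each had a negative difference. Per1, whose transcription also responds to cAMP and glucocorticoid signals, was at 8.94, 8.95 and 8.96 in knockout livers and at 9.13, 9.39, 9.38 and 8.94 in rescued livers. Rescued replicate 4 lay at the level of the knockout livers and the other rescued livers lay above them. The difference was -0.26 (interval -0.49 to -0.03) with adjusted p = 0.109, and without rescued replicate 4 it was -0.35 and was called (adjusted p = 0.0436). Per2, the PER protein gene required for normal rhythms in mice, read 8.89, 9.03 and 8.64 in knockout livers against 9.13, 9.12, 9.21 and 9.09 in rescued livers. The spread lay in the knockout group. The groups did not overlap, the difference was -0.28 (interval -0.48 to -0.08), and adjusted p was 0.0583. Without knockout replicate 2 the difference was -0.37 (adjusted p = 0.0391 in limma's test), and without knockout replicate 3 it was -0.17 (adjusted p = 0.137). Per3, the Period gene with the D-boxes shown above, read 8.26, 8.18 and 8.20 in knockout livers and 8.56, 8.36, 8.76 and 8.36 in rescued livers. The knockout livers were the tighter group and all lay lower, with a difference of -0.30 (interval -0.51 to -0.08) and adjusted p = 0.0619.

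**Figure D2:**
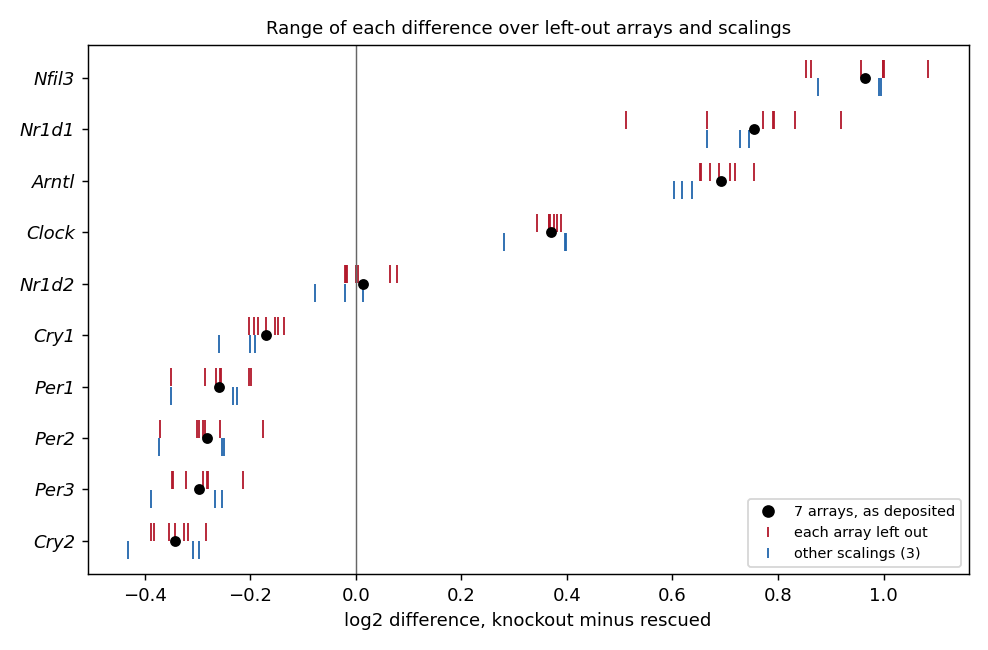
Log2 difference, knockout minus rescued, of each clock gene with all 7 arrays as deposited (black point), with each array left out in turn (red ticks) and under 3 other scalings of the arrays (blue ticks). The 4 rising members stay to the right of 0 and the Per and Cry genes to the left of 0 in all of these runs, while Nr1d2 falls on both sides.

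Whether related members changed unequally was tested with the log2 ratio of a pair within each array, which cancels any factor common to an array. Over 7 pairs an exact permutation test of the 35 possible divisions of the arrays was used, two-sided, with a smallest possible p of 0.0286. Nr1d1 over Nr1d2 differed by 0.74, knockout minus rescued, without overlap between groups (exact p = 0.0286, adjusted over the 7 pairs 0.10). Nfil3 over Dbp, the opposing D-box factors, differed by 1.22, likewise without overlap (exact p = 0.0286, adjusted 0.10). Arntl over Clock differed by 0.32, and the ratios did not overlap (exact p = 0.0571, adjusted 0.10). Cry1 over Cry2 differed by 0.17 with overlapping arrays (exact p = 0.0571, adjusted 0.10). The 3 ratios among Per1, Per2 and Per3 changed by 0.01 to 0.04, against SDs of 0.17 to 0.20 within groups (exact p = 0.857 to 1). No pair passed an adjusted p of 0.05. With 35 divisions, a pair could pass only if most of the 7 pairs reached the smallest possible p. The adjusted values therefore cannot decide whether a single pair changed unequally. The signs of the ratios among the Per genes turned with some arrays left out.

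**Figure D3:**
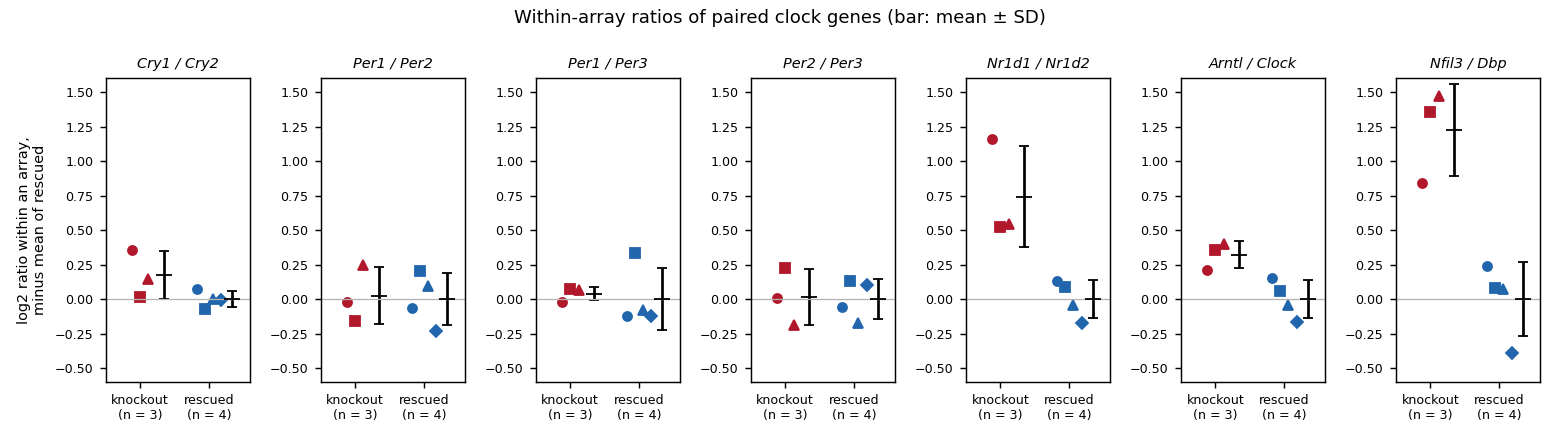
Within-array log2 ratio of 7 pairs of clock genes, each minus the mean ratio of the rescued arrays, with knockout livers in red (n = 3), rescued livers in blue (n = 4) and black bars for mean ± SD. Knockout ratios lie above all rescued ratios for Nr1d1 over Nr1d2, Arntl over Clock and Nfil3 over Dbp, and overlap for the ratios among the Per and Cry genes.

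Other transcription factors of the loops were listed as well, and 9 of 11 were measured. None was called, with 3 positive and 6 negative differences and a median of -0.09. An unadjusted p under 0.05 was reached by Rora, Dbp, Tef and Ciart. Dbp, the D-box activator, read 9.93, 9.67 and 9.76 in knockout livers and 9.91, 10.07, 10.08 and 10.13 in rescued livers. Only knockout replicate 1 and rescued replicate 1 overlapped, and the difference of -0.26 had adjusted p = 0.0579, or 0.0366 without rescued replicate 1 (-0.31). It was called after quantile normalization (-0.28, adjusted p = 0.0417) and median centring (-0.35, adjusted p = 0.0208). Tef, its relative, differed by -0.23 (adjusted p = 0.0720) without overlap, and after median centring by -0.32 (adjusted p = 0.0299). Hlf, the remaining activator of that family, differed by -0.09 (adjusted p = 0.290), also without overlap. Ciart, which encodes a repressor of the BMAL1 and CLOCK dimer, read 10.08, 10.05 and 9.94 in knockout livers and 9.66, 9.88, 9.75 and 9.22 in rescued livers. The knockout livers were all higher, by 0.40 (adjusted p = 0.0620), and its other probe set differed by 0.49. Without rescued replicate 4, the lowest array, the difference of Ciart was 0.26 (adjusted p = 0.0846). Rora, a RORE activator, differed by 0.19 (adjusted p = 0.138), or by 0.13 without rescued replicate 4. The E-box repressors Bhlhe40 and Bhlhe41 differed by -0.21 and -0.20 with overlapping groups (adjusted p = 0.303 and 0.310), or by -0.05 and -0.09 without knockout replicate 3 and by -0.39 and -0.33 without knockout replicate 1. Rorb and Arntl2 differed by 0.07 and -0.02. Olfactory and vomeronasal receptor genes, which liver is not known to express, gave a scale for dim signals. In knockout livers Rorb, Bhlhe41 and Arntl2 lay above 87.9, 87.8 and 85.0 percent of the 1194 receptor genes. The lowest of the 10 core members on this scale were Cry1 in knockout livers, above 99.41 percent, and Arntl in rescued livers, above 98.49 percent.

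**Figure D4:**
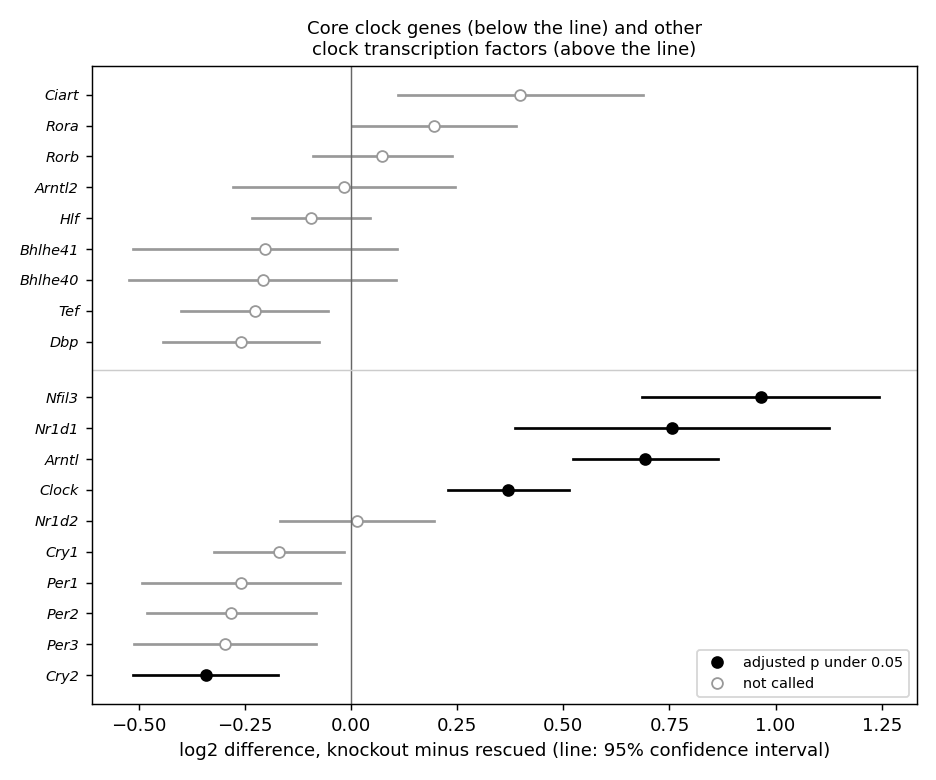
Log2 difference, knockout minus rescued, of the 10 core clock genes (lower block) and 9 other clock transcription factors (upper block), with 95% confidence intervals from limma; filled black points passed an adjusted p under 0.05. Nfil3, Nr1d1, Arntl and Clock lie to the right, Cry2 to the left, and none of the upper block passed.

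Within the corepressor that REV-ERB recruits, 4 of 6 listed genes were measured. Hdac3 itself read 8.93, 8.75 and 9.07 in knockout livers and 9.23, 9.45, 9.55 and 9.38 in rescued livers. The groups did not overlap and the difference was -0.48 (adjusted p = 0.0124, or 0.05001 without knockout replicate 1, where the call was lost at -0.49). Where its probes lie relative to the recombined part, and whether they read the vector's transcript, is unknown here, so this checks the labels only in part. Tbl1xr1, a subunit of the complex, rose by 1.20 (adjusted p = 1.69e-05) and by 1.07 at its other probe set. Tbl1x, its paralog, differed by 0.28 (adjusted p = 0.0611, and 0.0296 at 0.39 without knockout replicate 2), and Gps2 by 0.06 (adjusted p = 0.645).

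Of 31 measured kinases, phosphatases, ubiquitin ligases and partners that act on the clock proteins, 4 were lower and none higher (median -0.02). The 4 were called lower in every scaling. Over all genes 14.4% were called, 4.85% lower and 9.54% higher, and 4.06% were lower in every scaling. Btrc, a ubiquitin ligase subunit that recognises PER proteins, was 1.29-fold lower at 8.67 ± 0.12 (SD, n = 3) against 9.03 ± 0.03 (SD, n = 4), with adjusted p = 0.0115, and stayed called with each array left out. Ep300, the acetyltransferase p300, was 1.45-fold lower (adjusted p = 0.0113, and 0.0536 without knockout replicate 1). Prkaa1, a catalytic subunit of the kinase AMPK, which marks CRY1 for degradation, was 1.34-fold lower (adjusted p = 0.0215). It no longer passed (adjusted p = 0.0551 to 0.0648) when knockout replicate 2, knockout replicate 3, rescued replicate 3 or rescued replicate 4 was dropped. Usp2, a rhythmic deubiquitinase, was 1.24-fold lower (adjusted p = 0.0342). It no longer passed (adjusted p = 0.0508 to 0.108) when knockout replicate 1, knockout replicate 3, or rescued replicate 2, 3 or 4 was dropped.

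Rhythmic liver output genes, 22 measured of 25, split both ways, with 5 higher, 4 lower and a median of -0.01. Elovl3, a fatty acid elongase gene with a REV-ERB-controlled rhythm, was 2.01-fold higher at 10.82 ± 0.28 against 9.81 ± 0.25 (adjusted p = 0.00299). Insig2, which holds back cholesterol synthesis and is a known REV-ERB alpha target, was 1.79-fold higher at 10.80 ± 0.28 against 9.97 ± 0.07 (adjusted p = 0.00177). Noct, which encodes the phosphatase nocturnin, was 1.66-fold lower at 8.43 ± 0.10 against 9.16 ± 0.25 (adjusted p = 0.00553). These 3 stayed called with each array left out. Avpr1a, the vasopressin receptor, was 1.55-fold lower (adjusted p = 0.0252), and no longer passed (adjusted p = 0.0566 to 0.0785) when knockout replicate 1, knockout replicate 2 or rescued replicate 2 was dropped.

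The genes closest in profile to each called member were found by the root mean square distance over the 7 arrays, each profile centred on its own mean, and serve as description only. Lgalsl (0.09 log2 units) and Gstm2 (0.09) lay nearest to Arntl, and Lgalsl (0.16) and Mrnip (0.17) to Nfil3. Isl2 (0.03) and Acvr1c (0.04) lay nearest to Clock, and Krt8 (0.13) and Zfp36l1 (0.16) to Nr1d1. Acadsb (0.03) and the Y-linked gene Kdm5d (0.04) lay nearest to Cry2, with differences of -0.34 and -0.31.

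The livers carried hepatocyte transcripts at high level, and the 7 measured hepatocyte markers included no called gene, with a summed log2 level of 16.20 to 16.25 in knockout and 16.17 to 16.22 in rescued livers. Marker lists of Kupffer cells (6 measured), neutrophils (4), T and NK cells (3) and cholangiocytes (4) also held no called gene. Summed log2 levels were 11.49 to 11.64 against 11.12 to 11.71 for the Kupffer list, 7.80 to 8.15 against 7.68 to 7.82 for neutrophils, 8.26 to 8.32 against 7.99 to 8.17 for T and NK cells, and 9.003 to 9.19 against 8.80 to 8.94 for cholangiocytes. Called as deposited but not in every scaling were the B cell gene Ighm and the stellate cell gene Lrat, both higher, and the sinusoidal endothelial gene Clec4g, lower (1 of 3, 5 and 5 measured). The summed levels of those lists were 7.53 to 7.69 against 7.33 to 7.47, 10.57 to 10.65 against 10.45 to 10.56, and 11.74 to 12.01 against 12.03 to 12.07. The single erythroid marker measured of 3, Alas2, was 2.22-fold lower in knockout livers (8.41 ± 0.21 against 9.56 ± 0.12, adjusted p = 0.000190). The part of these markers in the clock gene values was not tested. In whole liver RNA, fewer cells of a type and less RNA per cell cannot be told apart.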

How the data were processed

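Per the labels' protocols, RNA was extracted with Trizol and labelled for Affymetrix arrays. The deposited table holds 27541 probe sets as linear intensity values, with medians of 105 to 111 in knockout and 96.3 to 102 in rescued arrays. RMA and Partek are named in the submitters' processing notes, and versions, genome build and the last scaling step are not given in the sources used here. The labels call the arrays biological replicates.

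Log2 intensity was taken from the deposited intensity values. Platform annotation gave 21631 probe sets 1 symbol, 1317 several and 4593 none, and each gene was read at its brightest probe set with 1 symbol. Groups were compared with limma 3.58.1 (R 4.3.3) over 19933 genes, two-sided, without covariates or a filter on dim genes, with Benjamini-Hochberg adjustment. The fit was tested on simulated data. Pairs were compared by exact permutation over arrays. Figures were drawn with matplotlib 3.10.9. The members and lists were chosen with earlier results of these data known. Named genes are all members, all measured genes of the clock factor and corepressor lists, up to 4 called genes of each other list with the largest differences, and the 2 nearest profiles of each called member (predicted, clone and receptor names left out). Fos and the immediate early and cAMP-response genes that were not called are named as well. For arrays, their number limits the precision.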

Additional observations from a re-analysis of the deposited data

Results flagged for a closer look

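Examined were the 36 members and named list genes, without Fos and the uncalled immediate early and cAMP-response genes. In each, the 4 rescued arrays were searched for 1 far from the other 3. It was found for 3 of these 36 genes. Chance gives about 1 in every 20 genes searched, so 3 is not far above that rate. The log2 level of Nr1d1 was 10.0015 in rescued replicate 4, below the 10.32 to 10.38 of the other rescued livers. In the same liver Nfil3 was at 7.56, against 7.97 to 7.98 in the others. Tef was at 9.48 in rescued replicate 3, against 9.32 to 9.34 in the others. Without rescued replicate 4 the difference of Nr1d1 was 0.67 and that of Nfil3 0.86, and both stayed called.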

How the results depend on the processing

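Nfil3, Nr1d1, Arntl and Clock were called higher in each of 16 refits over scaling, filter, probe set, rows tested, variance model, array weights, replicate block and left-out arrays. The 10 members gave 160 such values, of which 149 kept their side of the threshold, 4 (all Cry2) lost the call and 7 gained it. No called value changed sign. The count of called members was 5, and was 8 after median centring (4 of them lower) and 3 at an adjusted p under 0.01 (Arntl, Clock and Nfil3, with 0 lower). At an adjusted p under 0.1, 3 were lower. With an array left out, 0 to 2 members were lower: 0 without knockout replicate 1 or rescued replicate 2 or 3, and 2 without knockout replicate 2. Same-numbered arrays of both groups correlated at 0.157, 0.0407 and 0.0231 in their deviations from the group means. Of 3 knockout arrays, 1 matched its own number best. The numbers were treated as sample names, and so few arrays cannot decide whether same-numbered livers were linked. No knockout array has the number 4, so the replicate block also takes rescued replicate 4 out of the comparison. With the block 1938 genes and 3 lower members (Per1, Per3 and Cry2) were called, against 1331 genes and 1 lower member (Per1) without that array and without a block. Over all genes 2867 were called, 897 to 3263 with an array left out (897, 1721, 1200, 948 and 1331 without knockout replicate 1, knockout replicate 2 and rescued replicates 2, 3 and 4), 509 at 0.01 and 5528 at 0.1. In the 250 bases before the start alone, the RORE core was found in 1 member (Nfil3), and the counts of the other 5 motifs were the same as in the whole window. TAGGTTA, chosen after seeing the data, was in 1 member (Arntl) over the whole window and in 0 over the bases before the start. The 63 values of the pair ratios moved by less than their spread between replicates. The numbers of arrays, 3 and 4, limit what small differences such as that of Cry1 can show.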

Other observations

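Per1 and Per2 are known to respond to cAMP and glucocorticoid signals as well as to the clock, and genes of these pathways were measured alongside. Of 10 immediate early and cAMP-response genes, 5 were higher in the knockout livers and none lower (median 0.27), 4 of them in every scaling. The other 5 were not called. Ier2, Nr4a1 and Sik1 differed by 0.21, 0.13 and 0.09 (adjusted p = 0.158, 0.241 and 0.547 in limma's test). Crem and Dusp1 differed by -0.15 and -0.02 (adjusted p = 0.215 and 0.941). Whether cAMP signalling differed between the groups was not tested. Egr1, an immediate early transcription factor, read 8.99, 8.84 and 8.61 in knockout livers and 7.34, 6.76, 7.71 and 6.85 in rescued livers, 3.14-fold higher with adjusted p = 0.00103 in limma's test. Btg2, an antiproliferative gene, was 1.85-fold higher at 8.50 ± 0.24 (SD, n = 3) against 7.61 ± 0.21 (SD, n = 4), with adjusted p = 0.00285. Atf3 and Junb were 1.34-fold and 1.33-fold higher (adjusted p = 0.0187 and 0.0209). Atf3 no longer passed (adjusted p = 0.05445 to 0.0778) when knockout replicate 1, knockout replicate 2 or rescued replicate 3 was dropped. Junb no longer passed (adjusted p = 0.0552 to 0.0846) when knockout replicate 1, rescued replicate 2 or rescued replicate 4 was dropped.

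Of 10 glucocorticoid receptor targets, 1 was lower and none higher (median 0.09), where 4.85% of all genes were called lower and 9.54% higher. Fkbp5, a chaperone gene induced by the receptor, read 8.84, 8.86 and 9.26 in knockout livers and 9.36, 9.66, 9.69 and 9.39 in rescued livers, 1.45-fold lower with adjusted p = 0.0188. It no longer passed (adjusted p = 0.0523 to 0.0865) when knockout replicate 1, knockout replicate 2, rescued replicate 2 or rescued replicate 3 was dropped.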
